A study of Mus musculus with 4 samples.

Results

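Accessible regions near the distal (telomere-side) ends of the mouse autosomes were examined in bone marrow-derived macrophages (BMDMs) with and without histone H3.3. ATAC-seq peaks of 4 libraries were joined wherever they shared 1 bp or more, which gave 71243 regions. The 2202 regions whose centre lay in the last 3 Mb of chromosomes 1 to 19 of build mm10 are described here as terminal regions, and they are compared with the 12199 regions 3 to 20 Mb from the same ends, called inner regions. In ATAC-seq the transposase Tn5 cuts and tags open chromatin, and the study used it to ask where H3.3 loss changed accessibility. WT mice carried loxP-flanked H3.3 genes (H3f3a fl/fl and H3f3b fl/fl) without Cre, and H3.3 cKO mice carried the same floxed alleles with LysM cre/cre, which places Cre in the Lyz2 locus and acts in macrophages and granulocytes. BMDMs of both genotypes were grown from marrow in medium with L929-conditioned supernatant and were taken on day 7, with 2 biological replicates for each genotype. Deletion of the H3.3 genes and homozygous Cre at Lyz2 were present together in the cKO, so their effects cannot be told apart here.

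Telomeres are arrays of the repeat TTAGGG that cap chromosomes, and in the mouse they are long. The mouse autosomes are telocentric, so the low-numbered end of each assembly lies beside the centromere and the high-numbered end beside a long arm with genes. H3.3 is a histone H3 variant that is placed in chromatin without DNA replication. The chaperone HIRA places it mainly at active genes, whereas ATRX and DAXX place it at telomeres, pericentric repeats and retroelements. In embryonic stem cells H3.3 at these sites is known for its link to a closed chromatin state.

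The mm10 assembly of each autosome closes with a run of unknown bases, which was 100000 bp long on 17 chromosomes and 150000 bp on chromosomes 4 and 6. The last base before that run is called the last sequenced base here. On 18 of 19 autosomes the sequence at this point was the telomere repeat itself, and the exception was chromosome 4.

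The strongest peaks near these ends held copies of the repeat, but not around their summits. Around the summits of the 3 highest-ranked end regions, on chromosomes 14, 1 and 3, 150 bases (plus strand, RefSeq sequence of the mm10 build) are shown because these are the strongest peaks gained at chromosome ends, and these stretches held 0 copies of TTAGGG. The whole regions held 7, 2 and 8 copies. These summits lay 1477, 531 and 1559 bp before the last sequenced base.
chr14:124800692-124800841: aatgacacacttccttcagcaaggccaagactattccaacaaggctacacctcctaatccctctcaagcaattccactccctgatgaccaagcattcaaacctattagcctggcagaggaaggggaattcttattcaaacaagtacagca
chr1:195371365-195371514: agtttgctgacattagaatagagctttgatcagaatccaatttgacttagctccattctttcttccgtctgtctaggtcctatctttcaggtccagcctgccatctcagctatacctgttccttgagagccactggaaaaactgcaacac
chr3:159938046-159938195: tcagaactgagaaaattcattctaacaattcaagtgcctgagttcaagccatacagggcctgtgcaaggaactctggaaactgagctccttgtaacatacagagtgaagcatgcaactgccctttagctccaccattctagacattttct

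The deposited lists held 51955 to 64939 peaks and covered 28.4 to 35.2 Mb. WT replicate 2 had the longest list and cKO replicate 1 the shortest. The lists hold no read numbers, so the read depth behind each call is unknown. Promoters of 9 of 10 macrophage markers, among them Adgre1 (F4/80), Itgam (CD11b) and Csf1r, held a region called in all 4 libraries. The exception was Spi1, with no region at its promoter. Gene promoters were read only at the outermost annotated start, so a peak at another start was not counted. In the paper's RNA-seq tracks Spi1 was expressed equally in WT and cKO BMDMs. Of 7 neutrophil markers, 0 had a promoter called in all 4, but the promoter of Ly6g was called only in both cKO libraries, and that of Camp in some libraries. Among 8 lymphocyte, 7 erythroid and stem cell and 8 fibroblast and epithelial markers, the promoters of 1, 2 and 0 were called in all 4. The part of other cell types in the results was not tested. Of the deleted genes, H3f3a held a weak exonic region called in both WT libraries (5.02 and 19.1, as percentiles of the peak area) and in neither cKO library, while its promoter region was called in all 4 (96.0 and 97.2 in WT, 93.4 and 94.1 in cKO). H3f3b, in which the study floxed exons 1 to 4, still held 2 regions called in all 4 libraries. The lists therefore do not show its full removal. The H3f3b region classed as intronic stood lower in cKO, at 87.0 and 81.4 against 94.2 and 95.5 in WT. The one classed as promoter overlapped between genotypes (23.7 and 34.3 in WT, 28.7 and 42.5 in cKO). Classes were set by a region's centre, so a region classed as intronic can still reach a start. The paper describes H3f3b deletion as variable, either full or partial. It reports H3.3 loss in BMDMs by PCR, by RNA measurements and by western blot. The extent of H3f3b deletion in these 4 libraries was not tested.

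At the ends of the chromosomes, regions were called almost only in the cKO. Within 5 kb of the last sequenced base there were 21 terminal regions on 16 of the 19 autosomes. Of these, 20 were called in cKO libraries alone (95.2%, Wilson 95% interval 77.3 to 99.2), whereas 9.46% of all 71243 regions had that pattern. Both cKO libraries called 11 of the 21 and no WT library did, which is the definition of gained, beside a background of 3.72% over all regions. The other 9 of the 20 were called in cKO replicate 2 alone, and 0 were called in cKO replicate 1 alone. The remaining region, on chromosome 12, was called in all 4 libraries. The 5 kb window was chosen after these values were seen.

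Counted by library, 1 chromosome end had a region in WT replicate 1 and 1 in WT replicate 2, against 11 in cKO replicate 1 and 16 in cKO replicate 2. This gave a WT mean of 1 ± 0 (SD, n = 2) against 13.5 ± 3.54 for the cKO (SD, n = 2), and the groups did not overlap. The difference of 12.5 ends exceeded the spread between replicates, and the two-sided exact permutation test gave p = 0.333, the smallest value that 2 against 2 libraries allow. The longest list, of WT replicate 2, had 1 end and the shortest, of cKO replicate 1, had 11, while within the cKO the longer list had the more ends. With lists set to the length of the shortest, the numbers were 1, 1, 11 and 14 in the same order. They were 0, 0, 6 and 8 when each list was cut at its median peak area. Windows of 2 kb and 10 kb gave the same 4 numbers as 5 kb.

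**Figure D1:**
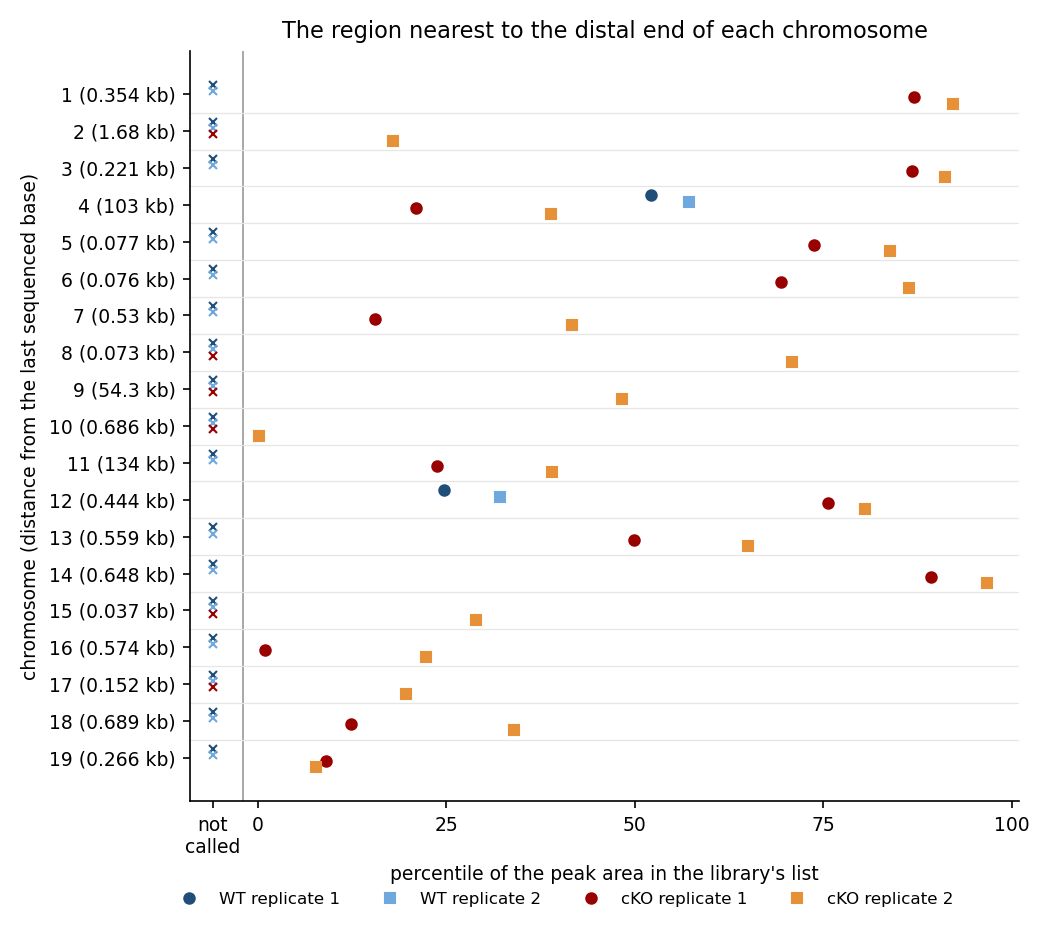
The region nearest to the distal end of each autosome, with its percentile of the peak area in each of the 4 libraries (x axis) and its distance from the last sequenced base in brackets; crosses on the left mark libraries that did not call it. WT points stand in 2 of the 19 chromosome lines, 4 and 12, and cKO replicate 2 called the region in all 19 lines.

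The strength of a peak was read as the percentile of its peak area, the deposited signal, among all peaks of the same list. The strongest end region was on chromosome 14 (124799482 to 124801596), at percentiles 89.3 and 96.8 in cKO replicates 1 and 2. That on chromosome 1 (195369625 to 195371617) stood at 87.0 and 92.3, and that on chromosome 3 (159936527 to 159939459) at 86.7 and 91.1. These 3 also ranked first among all 76 gained terminal regions by their mean percentile. They were 1993 to 2933 bp wide, whereas the median width of the 21 end regions was 638 bp and that of all terminal regions 485 bp.

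Chromosomes 5 and 6 followed with 73.7 and 83.8, and with 69.4 and 86.4. Their regions ended 77 and 76 bp before the last sequenced base. On chromosome 13, where the gene nearest to the region is Tcstv3, a gene known from early embryos, the region reached 49.96 and 65.0. Weaker gained ends were those of chromosome 7 (15.6 and 41.7), chromosome 18 (12.3 and 33.9), chromosome 16 (1.00 and 22.3) and chromosome 19 (9.02 and 7.77). Over the 11 gained end regions the median was 52.6 in cKO replicate 1 and 65.0 in cKO replicate 2, and the percentile was higher in replicate 2 in 10 of them.

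Chromosome 12 was the only autosome with a WT call within 5 kb of its end. Its region at 120027941 to 120028578 stood at 24.7 and 32.1 in WT against 75.6 and 80.6 in cKO, so both cKO values were above both WT values. A second region on the same chromosome (120025965 to 120027373), 1649 bp from the last base, was gained, at 52.6 and 64.8. On chromosomes 2, 8, 10, 15 and 17 the end was called in cKO replicate 2 alone, at percentiles of 0.153 on chromosome 10 to 70.8 on chromosome 8 for the region nearest to the end. Over all 9 regions of this kind the median was 17.96, so most of them ranked low even where they were called. Chromosomes 4, 9 and 11 had no region within 5 kb. The last region of chromosome 4, at the promoter of Samd11, lay 103 kb from the last base and was called in all 4 libraries. The last regions of chromosomes 9 and 11 lay 54.3 kb and 134 kb away, and they were called in cKO replicate 2 alone and in both cKO libraries, respectively. Chromosome X, which is outside the autosomes counted here, had its last region 206 kb from its last sequenced base, again in cKO replicate 2 alone.

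Many end regions held copies of the repeat, but few held several in a row. Whether reads could be placed in the repeat itself was not tested. In the last 1 kb of the 16 chromosomes with an end region there were 11 to 114 copies of TTAGGG, with a median of 46.5. The regions themselves held at least 1 copy in 13 of 21 cases. Only 4 of all 71243 regions held 4 or more copies in a row, on chromosomes 3, 5 and 14 (gained) and 15 (cKO replicate 2 alone), and 0 of the 4 were called in WT. The chromosomes 1 to 19 and X held 264 arrays of at least 4 copies in a row, of which 245 were farther than 5 kb from a last sequenced base. Of these 245 internal arrays, 11 had any region within 1 kb. By class, 20 of the 21 end regions were intergenic and 1 was in an intron.

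Sequence near chromosome ends is often shared between chromosomes, which bears on how reads can be placed. Of the 31-base words in the end regions, 43.9% to 100% (median 86.2%) occurred once in the genome, against a median of 100% over the other 2181 terminal regions. Of the 21 end regions, 9 had over 90% unique words, and 5 of these were gained. The gained region of chromosome 7 had 100% unique words, and those of chromosomes 13 and 5 had 97.03% and 95.5%. On chromosomes 8 and 17 the figures were 49.2% and 48.4%. How reads with several positions were treated is not given in the sources used here, and its part in the end calls was not tested.

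The gained share was highest within 5 kb of the last sequenced base, at 52.4% of 21 regions. Of the 15 regions 5 to 50 kb from the last sequenced base, 0 were gained, and of the 28 regions 50 to 100 kb away, 0 were gained (Wilson upper limits 20.4% and 12.1%). In these 2 intervals 12 and 18 regions were called in all 4 libraries. With 15 and 28 regions, they cannot show whether their gained share differed from 3.72%, the share over all regions. The gained share was 7.22% of 97 regions at 100 to 250 kb and 6.13% of 212 at 250 to 500 kb. It was 3.61% of 416 at 500 to 1000 kb and 2.24% of 670 at 1000 to 2000 kb. Beside these stand 3.72% over all regions and 3.099% over inner regions. The lost share (called in both WT and no cKO library) was 0 of 21 within 5 kb, and from 100 kb on it stayed between 9.10% and 11.3%.

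**Figure D2:**
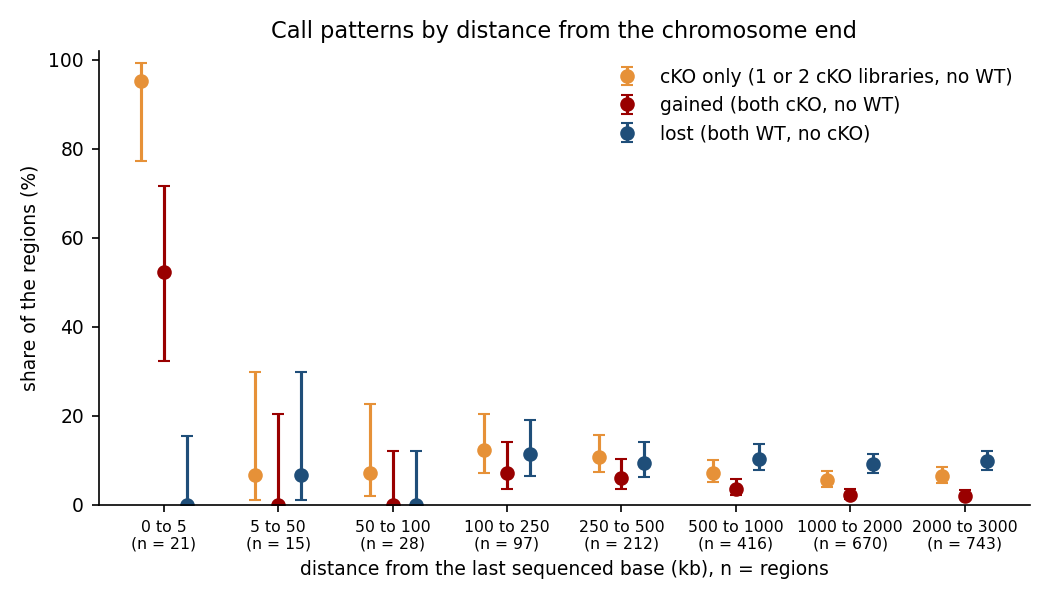
Share of terminal regions (y axis, percent) that were called in cKO only, gained or lost, by distance from the last sequenced base (x axis, kb), with Wilson 95% intervals that cover counting error only. The cKO-only share is 95.2% within 5 kb and at most 12.4% in every other interval.

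Over 1 Mb intervals, the last Mb had a gained share of 6.18% (45 of 728 regions), above the 1.71% to 4.88% of the 19 intervals from 1 to 20 Mb. Without the regions within 5 kb of the last base it was 4.81% (34 of 707, Wilson 95% interval 3.46 to 6.64), which is inside that range. Gained regions in runs, 3 or more with gaps of at most 10 kb, were part of this remainder: 2 runs of 5 gained regions lay in the last Mb, at Mx1 on chromosome 16 and at Resf1 on chromosome 6. The lost share in the last Mb was 9.07%, within the 6.14% to 11.02% of the other intervals.

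**Figure D3:**
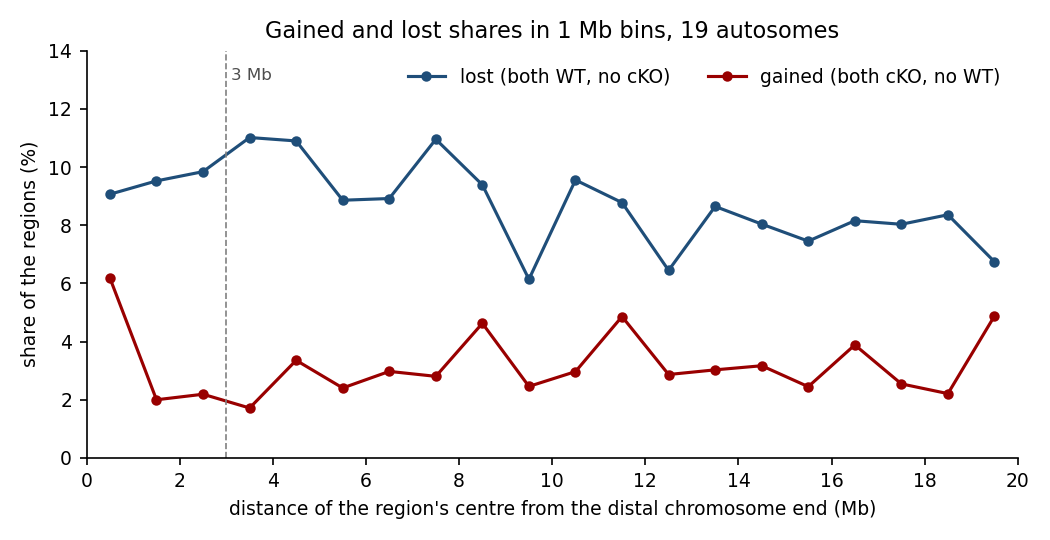
Shares of gained and lost regions (y axis, percent) in 1 Mb intervals from the distal ends of the 19 autosomes (x axis, Mb); the dashed line is the limit of the terminal zone. The gained share is highest in the first interval at 6.18%, and the lost share shows no peak there.

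Over the whole 3 Mb, terminal and inner regions had similar call patterns. Of the 2202 terminal regions, 76 were gained (3.45%, background 3.72%), against 378 of 12199 inner regions (3.099%). The difference of 0.353 percentage points had a Newcombe 95% interval of -0.404 to 1.25, which covers counting error only. It was -0.118 without the 21 end regions and -0.00240 with lists of equal length, so its direction was not stable. Among terminal regions 209 were lost (9.49%, background 7.25%), against 8.68% of inner regions, a difference of 0.810 points (-0.453 to 2.19). Called in all 4 libraries were 1330 (60.4%, background 62.9%), against 62.2%. The gained share was higher in the terminal than in the inner zone on 12 of 19 chromosomes, the lost share on 8 and the share called in all 4 on 5. The first 3 Mb of sequence at the centromere side held 1655 regions, of which 2.60% were gained and 9.003% lost. The member nearest to the 3 Mb limit was called in all 4 libraries, with 75.97 and 81.5 for WT and 76.02 and 76.7 for cKO, and the nearest region outside it was called in WT replicate 2 alone, at 14.04.

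By library, 1728 and 2008 terminal regions were called in WT and 1492 and 1774 in cKO. Of the regions called within 20 Mb of the ends, terminal regions made up 15.3% ± 0.0713 of the WT calls (SD, n = 2), and in cKO the share was 15.03% ± 0.122 (SD, n = 2). The cKO minus WT difference was -0.256 points, with groups that did not overlap (two-sided exact permutation test, p = 0.333, the smallest possible), but it was 0.210 for the last 1 Mb. The median percentile of called terminal regions minus that of called inner regions was -1.62 and -1.03 in WT against 0.644 and -1.47 in cKO, with overlapping groups (two-sided exact permutation test, p = 0.667).

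Most gained and lost terminal regions were weak. The 76 gained regions had median percentiles of 16.3 and 29.1 in cKO replicates 1 and 2, with ranges of 0.468 to 89.3 and 0.417 to 96.8. The 209 lost regions had medians of 11.7 and 27.4 in WT, and their highest value was 61.5. Regions called in all 4 had medians between 56.9 and 69.8 across the libraries.

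Terminal regions called in all 4 stood lower in the cKO lists than in the WT lists. Both cKO percentiles were below both WT percentiles in 735 of 1330 (55.3%, background 35.1%), and above both in 175 (13.16%, background 22.2%). For the 7587 inner regions of this kind the shares were 45.9% and 14.9%. The median change of cKO minus WT was -4.19 percentile points for terminal, -2.97 for inner and -1.10 for all 44820 such regions. With lists of equal length the terminal value was -2.68. No inner value with such lists is given here, so the zones cannot be compared under that setting. By library the terminal median was 63.7 and 69.8 in WT against 56.9 and 62.7 in cKO, a difference of -6.95 between the means of these medians, and the groups did not overlap (two-sided exact permutation test, p = 0.333, the smallest possible). Without WT replicate 2 the median change per region was -2.15, and without cKO replicate 2 it was -6.49. Terminal minus inner, the medians differed by 1.51 and 1.86 points in WT and by 0.584 and -0.0723 in cKO. These are differences of rank within a list, not of accessibility on an absolute scale.

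The shift differed between chromosomes. The terminal median change was below 0 on 17 of 19 chromosomes, and the share lower in cKO was larger in the terminal than in the inner zone on 15. The lowest values were on chromosome 9, with a median of -12.5 points over 95 regions of which 77 were lower in cKO, and on chromosome 8, with -7.14 points over 111 regions. On chromosome 2 the change was -7.08 points and 71 of 88 regions were lower. Chromosome 13 had the highest value, 1.21 points over 50 regions. Chromosome 9 also had the most lost terminal regions, 31 of 169 (18.3%), beside 1 gained. The lost share was 9.49% over all terminal regions, 7.25% over all regions and 10.03% in the inner zone of chromosome 9. In that inner zone the median change was -5.03 points, and 57.2% of the regions called in all 4 were lower in cKO.

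**Figure D4:**
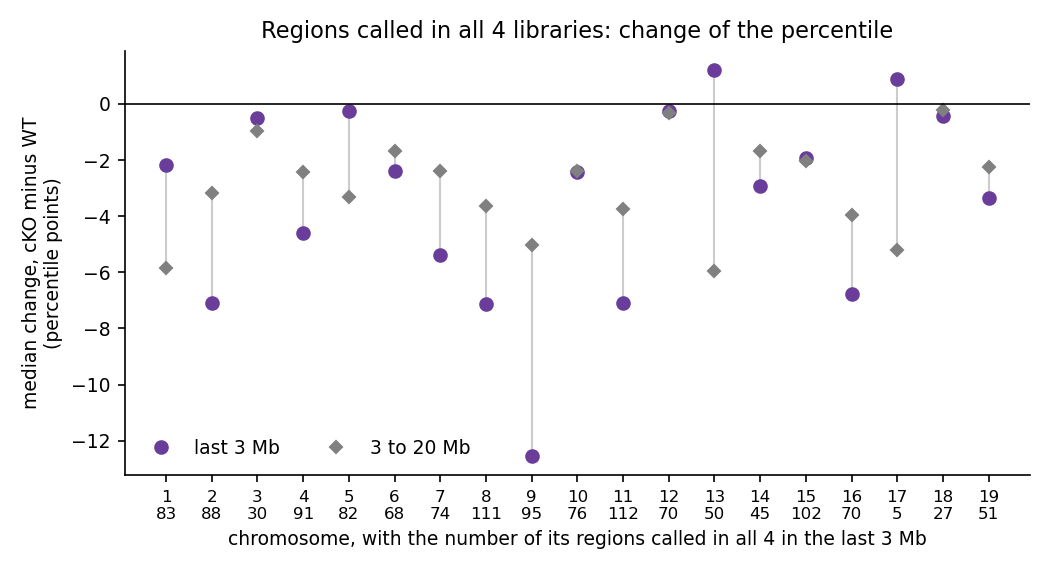
Median change of the percentile, cKO minus WT (y axis, percentile points), over regions called in all 4 libraries in the last 3 Mb (circles) and 3 to 20 Mb from the end (diamonds), by chromosome with the number of terminal regions (x axis). Terminal medians lie below 0 on 17 of 19 chromosomes, with -12.5 on chromosome 9 as the lowest.

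Promoters of protein-coding genes were rarely gained or lost. Of 724 such genes with a start in the last 3 Mb, 370 (51.1%) had a promoter region called in all 4, 2 had a gained one and 4 a lost one. A further 25 (3.45%) had a promoter region with another call pattern, and 323 had none at the outermost annotated start. Rapgef5, which encodes an exchange factor for Rap GTPases, had 1 of the gained promoters. The lost ones were those of Ccdc13, Zfp105 and Zkscan7 on chromosome 9 and Mrgpre on chromosome 7. In the inner zone 0.326% of 3065 promoters were gained and 0.914% lost. Ranks did differ among the 307 terminal regions classed as promoter and called in all 4. Of these, 64.8% were lower and 7.49% higher in cKO. The shares were 49.1% and 12.5% for inner and 33.1% and 21.8% for all promoter regions of this kind.

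Among gained regions away from the ends, the strongest lay in an intron of Tnfrsf23, a decoy receptor for the death ligand TRAIL, at chromosome 7: 143666487 to 143667430. It stood at 80.4 and 83.0 in the cKO libraries, with 71.8% unique 31-base words. Next came an intronic region 23.5 kb from the start of Hhat, the enzyme that adds palmitate to Hedgehog proteins (chromosome 1: 192747123 to 192748381), at 73.1 and 87.5. Its neighbour at 192744951 to 192746885 was called in all 4 and stood at 35.5 and 44.3 in WT against 99.0 and 99.5 in cKO. These adjacent regions thus ranked high in both cKO libraries, and the groups did not overlap. A region on chromosome 10 (130311316 to 130312277), 11.1 kb from the start of Tespa1, had the largest upward difference among regions called in all 4, from 2.85 and 2.80 in WT to 65.7 and 66.0 in cKO. An exonic region 0.712 kb from the start of Rdh5, a retinol dehydrogenase, went from 0.856 and 30.9 to 61.1 and 86.7. Near Resf1, a factor for the silencing of retroelements, a region 2.43 kb from the start stood at 8.26 and 21.1 in WT against 66.0 and 72.4 in cKO, and 5 gained regions lay between 149329034 and 149348571 on chromosome 6. The fifth of the largest upward differences lay in an exon 37.5 kb from the start of Medag, from 20.6 and 31.8 to 74.9 and 77.8.

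The strongest lost regions were of middle rank. They lay 86.1 kb from the start of Nrp1, which encodes the receptor neuropilin 1 (55.0 and 60.6 in WT), 12.3 and 25.4 kb from Slco4a1, an organic anion transporter (56.6 and 58.6, and 56.7 and 58.3), 74.4 kb from Itgb8, an integrin chain (57.7 and 56.6), and at the promoter of Ccdc13 (50.03 and 61.5). The region at 180443679 to 180444250 and that at 180430532 to 180431064 belonged to a run of 4 lost regions near Slco4a1 on chromosome 2. Among regions called in all 4, the largest downward difference was in an intron near Osbpl2, an oxysterol-binding protein, from 68.9 and 70.6 to 6.44 and 11.5. Differences of -52.6, -50.5, -49.0 and -47.6 points in the mean followed near Cd46, Dus1l, Ccr1 and Plxna2. The highest-ranked of all terminal regions, at the promoter of Ppp2r3d on chromosome 9, stood between 99.987 and 99.991 in the 4 libraries.

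Of the 93 interferon-stimulated and interferon signalling genes found in the annotation, 4 started in the last 3 Mb: Isg15, Mx1, Mx2 and Stat2. All 4 had a promoter region called in all 4 libraries. Within 10 kb of these genes lay 20 regions, 5 gained, 0 lost and 12 called in all 4, where the shares over all regions were 3.72%, 7.25% and 62.9%. All 5 gained ones were at Mx1. Mx1 (ENSMUSG00000000386.15, chromosome 16: 97447035 to 97462907, reverse strand) encodes an antiviral GTPase of the dynamin family, and its start is 0.745 Mb from the chromosome end. Its 5 gained regions lay between 97445964 and 97456660, in the gene body and just behind it. The strongest of them, of 3876 bp, stood at 62.2 and 76.2, whereas the other 4 stood at 0.693 to 7.63 in cKO replicate 1 and at 29.0 to 56.4 in cKO replicate 2. A region just downstream of the outermost start (97461109 to 97461887), also classed as promoter, stood at 3.24 and 8.95 in WT against 40.3 and 52.1 in cKO. The promoter region at the outermost start was lower in cKO, 82.3 and 83.0 against 84.8 and 87.0. A region upstream of the start (97472390 to 97473027) was also lower, at 43.8 and 53.4 in cKO against 82.8 and 81.4 in WT.

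**Figure D5:**
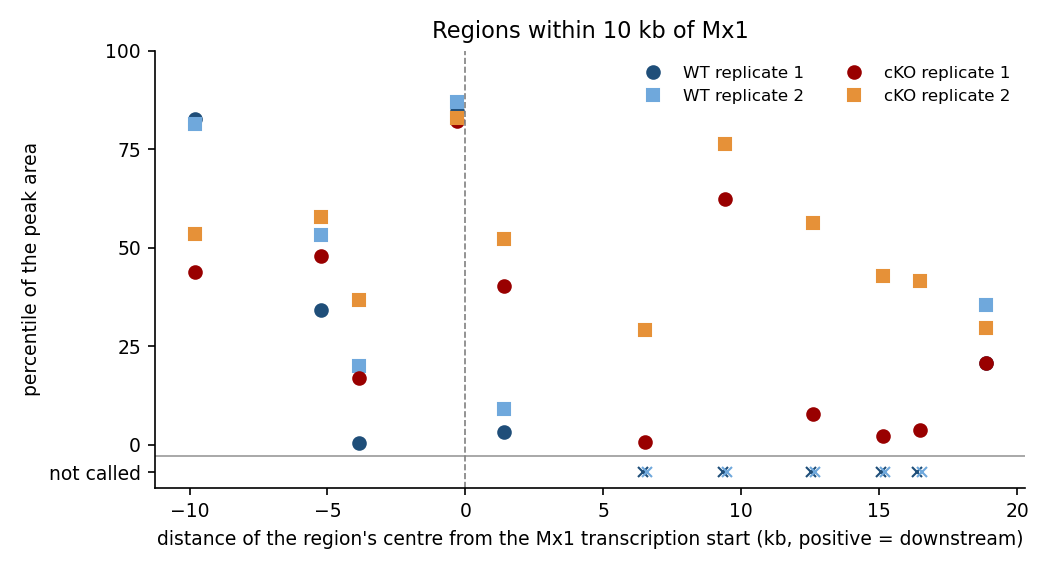
Percentile of the peak area (y axis) in each library for the 11 regions within 10 kb of Mx1, by distance from its transcription start (x axis, kb); crosses mark libraries that did not call a region. The 5 gained regions downstream of the start have cKO points only, and at the start the 4 libraries stand between 82.3 and 87.0.

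Mx2, the neighbouring gene of the same family, had a promoter region at 99.5 and 99.6 in WT against 97.7 and 98.6 in cKO. For Isg15, a ubiquitin-like modifier, 2 of 4 regions were higher in cKO: 62.6 and 64.9 against 53.3 and 61.0 at 156200563 to 156201207, and 78.6 and 80.8 against 66.4 and 76.1 at 156202547 to 156204153. The region at 156210036 to 156210561 went the other way, with 49.8 and 60.4 in WT, no call in cKO replicate 1 and 4.42 in cKO replicate 2. Both regions of Stat2, a transducer of interferon signals, were lower in cKO, at 88.0 and 89.4 against 89.7 and 91.6 for its own promoter. Over the 12 regions of these genes called in all 4, 3 were higher and 5 lower in cKO, where the shares over all such regions were 22.2% and 35.1%.

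The list of myeloid receptor, chemokine receptor and macrophage identity genes was chosen with earlier results of these data known. Its number of terminal genes therefore does not measure where such genes lie. Of its 78 genes found in the annotation, 27 started in the last 3 Mb. Their 134 regions comprised 5 gained, 15 lost and 84 called in all 4 (3.72%, 7.25% and 62.9% over all regions). Of the 84, 10 were higher in cKO (22.2% over all regions of that kind), and 51, or 60.7%, were lower (55.3% in the last 3 Mb and 35.1% over all). The chemokine receptor cluster of chromosome 9 was among them. At Ccr1 the promoter ranked at 73.6 and 76.7 for WT and 63.4 and 63.95 for cKO. Of the 6 regions at Ccr3, the receptor for eotaxins, 3 were lower in cKO, such as 82.4 and 84.5 against 66.6 and 71.8. Of the 4 regions around Ccr2, which guides monocytes, the 2 called in all 4 were lower in cKO. The cluster was not uniform: of the 2 regions called in all 4 at Cxcr6, 1 was higher in cKO and 1 lower. The higher one stood at 14.8 and 39.7 in WT against 49.8 and 54.8 in cKO. Xcr1, a marker of cross-presenting dendritic cells, had 2 lost regions, 1 of which, at a promoter, stood at 36.3 and 55.3 in WT. Of its 5 regions called in all 4, 4 were lower in cKO. Of the 4 regions at Ccr9, 1 was lost and 3 were lower, with 71.4 and 71.4 against 36.2 and 50.9 at 123722718 to 123723174.

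Outside that cluster, Nrp1 had 22 regions, with 5 lost, 1 gained and 9 called in all 4. Of the 9, 3 were higher in cKO and 3 lower. The promoter region of Nrp1 was among the strongest, at 99.94 and 99.95 in WT against 99.5 and 99.7 in cKO. Cd81, a tetraspanin, had 6 of 7 regions called in all 4 that were lower in cKO. Csf2ra, the alpha chain of the GM-CSF receptor, went the other way at its exonic region, from 99.70 and 99.67 to 99.92 in both cKO libraries. The other region of Csf2ra was lost, at 27.2 and 32.0 in WT. Itgb7, an integrin chain that guides lymphocytes to the gut, had a gained region at 30.0 and 45.8, and it had 0 regions called in all 4. Of the 27 genes, 13 had neither a gained nor a lost region.

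Of 42 genes for telomere maintenance and H3.3 placement, 40 had a promoter called in all 4 libraries, 0 a gained and 0 a lost one. Among protein-coding genes the share called in all 4 was 51.1% in the terminal and 57.5% in the inner zone, and gained or lost promoters were each under 1%. The exceptions, with no region at the outermost annotated start, were Tert, the telomerase reverse transcriptase, and Slx4, a scaffold for nucleases. Atrx, Daxx and Hira were among the 40. Only 2 of the 42 lay in the last 3 Mb. Rtel1, a helicase that unwinds telomere loops, had its promoter at 75.5 and 81.9 in WT against 65.9 and 66.2 in cKO, and Cbx5, which encodes the heterochromatin protein HP1 alpha, had 1 lost region and 2 called in all 4 whose groups overlapped.

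The terminal zone was richer in genes and promoters than the inner one. The last 3 Mb held 40.0 regions and 13.16 protein-coding genes per Mb of sequence, against 37.8 and 9.49 in the inner zone. Promoters made up 16.8% of terminal and 13.98% of inner regions, and introns 43.1% and 48.1%. The median GC content was 48.9% and 49.7%. The end regions were poorer in GC, with a median of 39.9%, and a median of 31.04% of their bases was marked as repeats in the assembly, against 9.52% over terminal regions. Motifs were searched on both strands, in the 100 bp to each side of a summit. TTAGGG stood there in 7.86% of terminal regions and 7.60% of all regions, and in 4 of the 21 end regions. The AP-1 motif TGACTCA stood in 22.4% of the 76 gained and 10.5% of the 209 lost terminal regions, against 22.6% and 7.28% of gained and lost regions over all chromosomes. The PU.1 motif GAGGAAGT was found in 7.89% of gained and 11.005% of lost terminal regions. Over all chromosomes it stood in 8.97% of gained, 12.8% of lost and 11.01% of all regions.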

How the data were processed

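ATAC-seq libraries of WT and H3.3 cKO BMDMs, 2 of each, were grouped by their titles. Nothing ties the replicate numbers to shared animals, and the exact tests measure only the spread between these 4 libraries. The authors aligned paired reads to mm10 with Bowtie2 2.5.1 and called peaks in each library with Genrich at default settings. Read filters, duplicate removal and any shift of read ends are not given in the sources used here. The deposited signal column is the peak area, with a minimum of 200, so a site just below that limit is absent from a list. The −log10 p-value at each summit and the score, capped at 1000, were also deposited by the authors, and were read but not used for results.

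Peaks overlapping by 1 bp or more were merged in Python 3.11.15 (pandas 2.3.3, numpy 2.4.6), and the best peak's percentile of area within its list was the value of a region. A library called a region when it had a peak there. Intervals for shares are Wilson or Newcombe 95% intervals over regions, which are not replicates. Library values were compared by two-sided exact permutation tests over the 6 assignments of labels, which cannot reach p below 0.333. Classes came from the GENCODE M21 basic annotation (promoter, 1000 bp before to 100 bp after a start, then exon, intron, intergenic). They were set by a region's centre over every annotated transcript start, whereas the promoter of a gene was read at its outermost start. Sequences came from the RefSeq mm10 assembly through pysam 0.24.0 and samtools 1.23.1. The 31-base words were counted on both strands of chromosomes 1 to 19, X and Y. The merging, calling, word counts and tests were tested on simulated data. Alternatives were other zone limits, stricter or equal-length lists, a 50% cover, regions outside promoters, and leaving out 1 chromosome or 1 library.

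The members and gene lists were chosen with earlier results of these data known. Named were list genes starting in the last 3 Mb, the last region of each chromosome, the 5 gained and 5 lost regions of highest mean percentile, the 5 largest differences each way among regions called in all 4, the highest region, and the telomere and H3.3 genes by promoter. Medians, runs and end windows were added after the data were seen, as were the genes of the changed promoters. The result for 1 named gene is not reported here.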

Additional observations from a re-analysis of the deposited data

How the results depend on the processing

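The lists hold no reads, so a region just below the peak caller's limit in 1 library counts as not called, and with 2 libraries a group no p below 0.333 is possible. The gained share, terminal minus inner, was 3.08 percentage points when only the last 1 Mb was taken, against 0.353 for the last 3 Mb. It was below 0 for the last 5 Mb (-0.124), with lists of equal length (-0.00240) and without the 21 end regions (-0.118, an alternative chosen after seeing the data). The terminal share of called regions, cKO minus WT, was 0.210 points for the last 1 Mb, -0.950 for the last 5 Mb, 0.115 against an inner zone of 3 to 10 Mb, -0.0625 with only peaks above the median area and -0.397 outside promoters. The terminal minus inner median percentile, cKO minus WT, was 0.910 points, and it was -0.929 for the last 1 Mb and -2.04 with only peaks above the median area. The number of chromosome ends with a region, cKO minus WT, was 7 with only peaks above the median area, against 12.5, and it was 10 to 15 without single libraries. The median change of regions called in all 4 kept its sign under all 13 alternatives, as did the number of ends under all 11. Some of these could not change the value. For the median change they were the inner zone of 3 to 10 Mb and the replicate block. For the ends they were the replicate block and leaving out the chromosome with most members, chromosome 11, which had no end region. The lost share difference kept its sign under 11 of 12 alternatives, and the difference in the share called in all 4 under 11 of 12.

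The replicate numbers are only names here. With the replicate block, in which labels were permuted within replicate numbers, the differences stayed -0.256 (exact p = 0.5) for the share, 0.910 (exact p = 1) for the median percentile, -6.95 (exact p = 0.5) for the library medians of regions called in all 4, whose median change per region was -4.19, and 12.5 (exact p = 0.5) for the ends, where 0.5 is the smallest p possible. Deviations from the group means correlated by 0.295 between libraries of the same number over 44820 regions, a value that 2 libraries per group force to be equal for both numbers.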
